A study of Homo sapiens with 6 samples.

Results

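CXCL1, CXCL2, CXCL3, CXCL5, CXCL6, CXCL8, CXCL10, CXCL11, CCL20 and CX3CL1 are genes of neutrophil-attracting and related chemokines, chosen by name and read here in HCT116 cells, a human colorectal carcinoma line. These 10 genes, of 18132 with a probe set of their own, are read by 21 of the 44988 probe sets that the platform annotation gives to 1 gene. RNA was measured on 3 Affymetrix arrays of HCT116 cells labelled CSF3 and 3 of HCT116 cells labelled control (Ctrl). Both groups were grown in RPMI-1640 with fetal bovine serum, penicillin and streptomycin, per the design text. How the cells came to have CSF3, by added protein, by a vector or otherwise, is not in the labels. Neither is whether a group's arrays stand for separate cultures. The p-values therefore cover only the spread between these arrays, which may be technical.

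Chemokines are small secreted proteins that draw white blood cells along a gradient through G protein-coupled receptors. CXCL1, CXCL2, CXCL3, CXCL5, CXCL6 and CXCL8 carry a glutamate-leucine-arginine motif before their paired cysteines and attract neutrophils through CXCR2, CXCL6 and CXCL8 also through CXCR1. CXCL10 and CXCL11 lack that motif, are known as interferon-induced ligands of CXCR3 and draw T cells. CCL20 attracts cells that carry CCR6, and CX3CL1, or fractalkine, is a membrane-anchored ligand of CX3CR1 that ADAM10 and ADAM17 can shed. In colonic epithelium many of these genes are known targets of NF-κB, the pathway named in the title of the study.

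The neutrophil-attracting genes lie together: along chromosome 4, the protein-coding genes from CXCL8 to CXCL2 in the RefSeq annotation of GRCh38.p14 run CXCL8, CXCL6, PF4V1, CXCL1, PF4, PPBP, CXCL5, CXCL3 and CXCL2. CXCL10 and CXCL11 also lie on chromosome 4, CCL20 on chromosome 2 and CX3CL1 on chromosome 16. RefSeq promoter windows, from 250 bases before to 50 bases after the annotated start, were at hand for 9 of the 10 genes, all but CX3CL1. The windows of CXCL1 and CXCL3 were 82.5% identical in a global alignment, those of CXCL2 and CXCL3 73.8%, those of CXCL1 and CXCL2 71.9%, and those of CXCL5 and CXCL6 83.1%. Other pairs had 44.3% to 55.4% identity.

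The stretches below are shown because they hold the sequence that most of these genes share, a 9-base core of a κB element, the DNA sequence that NF-κB binds. Capitals mark GGAATTTCC, or GGAAATTCC where the match is on the opposite strand, and each stretch runs 30 bases to either side, 5′ to 3′ along the gene's own strand. CXCL1, CXCL2 and CXCL3 come first (chr4:73869285-73869353, plus strand; chr4:74099234-74099302, minus strand; chr4:74038729-74038797, minus strand; all GRCh38.p14).
CXCL1: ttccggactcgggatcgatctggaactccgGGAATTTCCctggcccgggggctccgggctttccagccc
CXCL2: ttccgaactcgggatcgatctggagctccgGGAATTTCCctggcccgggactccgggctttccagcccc
CXCL3: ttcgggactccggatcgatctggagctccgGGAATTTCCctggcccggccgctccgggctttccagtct

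The next stretches are those of CXCL8 (chr4:73740448-73740516, plus strand), CXCL5 (chr4:73998729-73998797, minus strand) and CXCL6 (chr4:73836559-73836627, plus strand), the other neutrophil-attracting genes.
CXCL8: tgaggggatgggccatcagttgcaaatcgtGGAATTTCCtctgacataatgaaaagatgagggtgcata
CXCL5: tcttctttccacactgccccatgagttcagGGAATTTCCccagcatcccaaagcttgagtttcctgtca
CXCL6: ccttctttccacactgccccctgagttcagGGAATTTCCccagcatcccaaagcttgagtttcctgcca

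The interferon-linked genes CXCL10 (chr4:76023635-76023703, minus strand) and CXCL11 (chr4:76036107-76036175, minus strand) hold the core on the opposite strand. For CCL20 (chr2:227813733-227813802, plus strand) the capitals mark a match to the 10-base κB consensus, also on the opposite strand.
CXCL10: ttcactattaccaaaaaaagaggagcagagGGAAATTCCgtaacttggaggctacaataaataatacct
CXCL11: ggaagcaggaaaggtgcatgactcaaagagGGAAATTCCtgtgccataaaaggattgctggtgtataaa
CCL20: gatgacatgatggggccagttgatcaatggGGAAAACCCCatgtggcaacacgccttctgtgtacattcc

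Counted in bases from the annotated start, the core began at -78, -77 and -78 in CXCL1, CXCL2 and CXCL3, at -91 in CXCL8, at -90 in CXCL5 and at -89 in CXCL6. In CXCL10 it began at -176 and in CXCL11 at -75. Of 35114 RefSeq promoter windows of the same length, 0.461% hold GGAATTTCC on either strand, against 8 of the 9 windows here. The κB consensus, which overlaps this core in CXCL1, CXCL2, CXCL3, CXCL5 and CXCL6, was found in 7 of the 9 windows and in 7.73% of all. TGANTCA, a motif of AP-1 factors such as FOS and JUN, was found in CXCL8 and CXCL11 and in 7.71% of all windows. The core of the interferon-stimulated response element, a repeat of GAAA with a short spacer, was found in CXCL10 alone of the 9 windows and in 3.57% of all. The core was chosen for the search after the sequences were read, several of these genes are duplicates of one another, and a match is a description of the letters only.

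**Figure D1:**
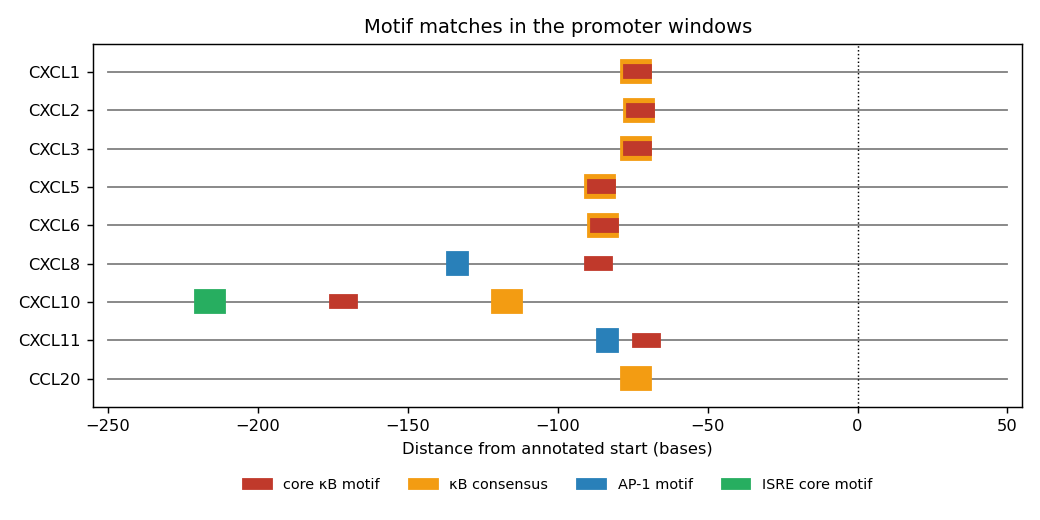
Motif matches in the RefSeq promoter windows of 9 chemokine genes, by distance from the annotated start in bases (dotted line at the start; each grey line is 1 window). The core κB motif lies between -91 and -67 in 7 genes, further upstream in CXCL10, and has no match in CCL20.

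CXCL2 and CXCL3 rose most on the CSF3 arrays, on both probe sets of each. CXCL8 rose by 0.81 on 1 of its 3 probe sets, CCL20 by 0.63 on its single one, and CXCL1 and CX3CL1 by 0.20 to 0.48. The small rises of CXCL5, CXCL6, CXCL10 and CXCL11 lay where most dim probe sets also read higher. By limma, with an adjusted p under 0.05 over all 44988 probe sets, 17 of the 21 chemokine probe sets rose, 0 fell and 4 were not called (17 higher and 0 lower also at an unadjusted p under 0.05). By the brightest probe set all 10 genes rose. Across all probe sets 36.7% rose and 28.8% fell, and across the brightest probe sets of all genes 44.1% rose. In 16 of the 21 probe sets every CSF3 array read above every Ctrl array, which held for 39.8% of all probe sets, while in 30.9% of all every CSF3 array read below. The median difference of the 21 was 0.34 on the log2 scale, against 0.10 over all probe sets.

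**Figure D2:**
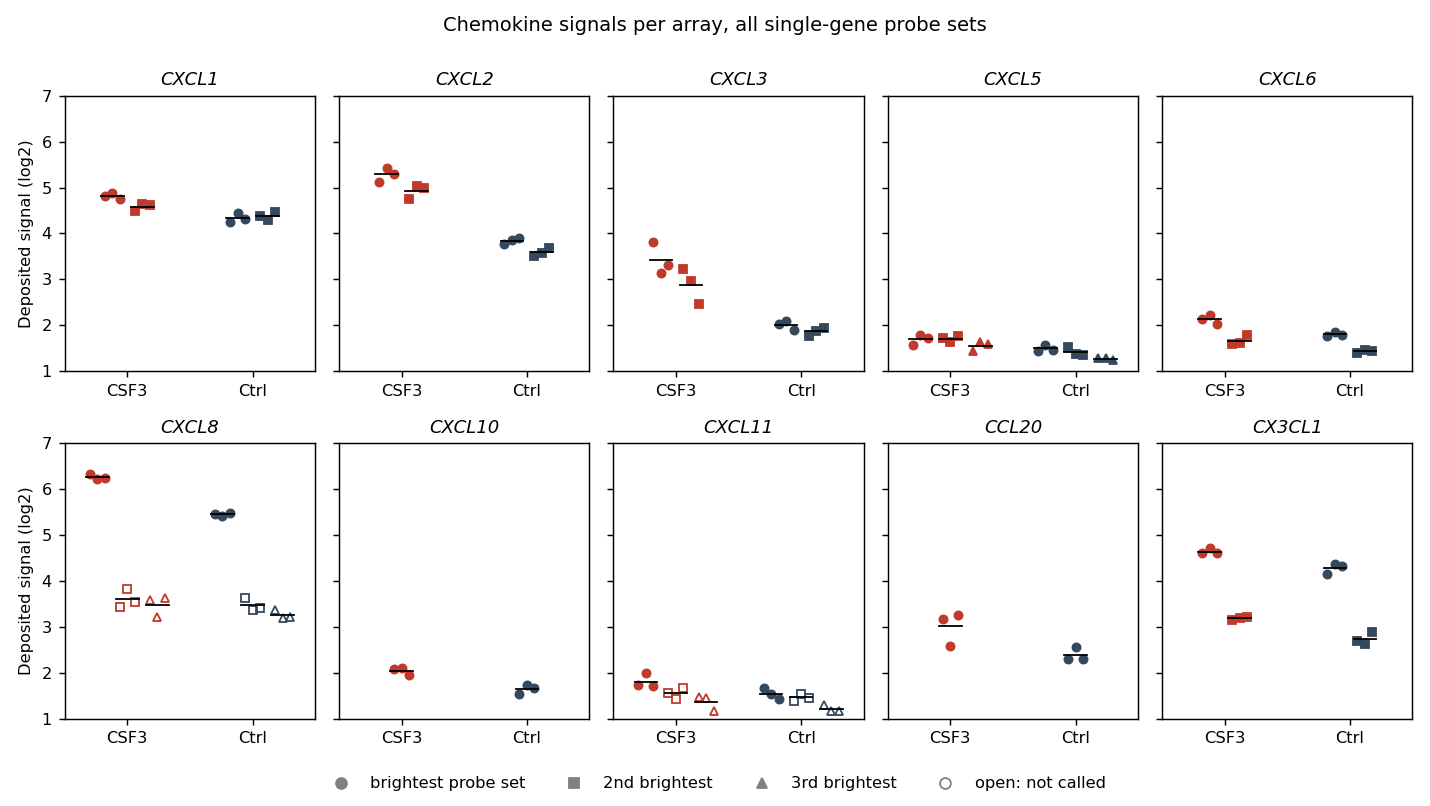
Deposited log2 signal of every single-gene probe set of the 10 chemokine genes on each of the 3 CSF3 arrays (red, left) and 3 Ctrl arrays (dark blue, right). Points are arrays, marker shape is the probe set, bars are group means and open markers are probe sets that did not pass the test; the groups of CXCL2 and CXCL3 lie furthest apart.

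Arrays of a group were closely alike, with a Pearson's r across probe sets of 0.994 to 0.995 between CSF3 arrays and 0.998 between Ctrl arrays, against 0.970 to 0.974 between the groups. The deposited values also differed between the groups in ways that touch these genes. The gap between the 3′ and 5′ probe sets of GAPDH, which widens as RNA breaks down, was 0.682 ± 0.003 on CSF3 arrays and 0.306 ± 0.007 on Ctrl arrays (log2, SD, n = 3). For ACTB the gap was 1.94 ± 0.02 on CSF3 arrays and 1.34 ± 0.03 on Ctrl arrays. The 18 probe sets of hybridisation controls had a median of 8.36 on CSF3 arrays and 6.82 on Ctrl arrays, a difference of 1.53, larger than that of any chemokine as deposited. The 24 probe sets of poly-A controls had a median of 5.61 on CSF3 arrays and 4.09 on Ctrl arrays, a difference of 1.52. Each of these comparisons has an exact two-sided permutation p = 0.1, the smallest possible with 3 arrays a group. All 23 background probe sets, which match no human transcript, read higher on CSF3 arrays, by 0.0050 to 0.34 with a median of 0.073. The part of these in the results below was not tested. In such bulk RNA a change in the share of cells that make a message and a change in the message per cell cannot be told apart.

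Since dim probe sets as a whole read higher on CSF3 arrays, the chemokine probe sets are set beside others of like signal, in 4 bins of equal size by the mean over the 6 arrays, chosen after seeing the data. In the dimmest bin the median difference was 0.22 and 46.4% rose, in bin 2 0.25 and 50%, in bin 3 -0.09 and 30.8%, and in the brightest bin -0.21 and 19.7%. The 9 probe sets of CXCL5, CXCL6, CXCL10 and CXCL11 all lie in the dimmest bin, where 7 of them rose with a median of 0.26 over the 9. CXCL3, CCL20, the dimmer probe set of CX3CL1 and both dimmer ones of CXCL8 lie in bin 2, where 4 of 6 rose. CXCL1, CXCL2 and the brighter probe set of CX3CL1 lie in bin 3, where falls outnumbered rises, and all 5 rose. The brightest probe set of CXCL8 lies in the brightest bin.

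**Figure D3:**
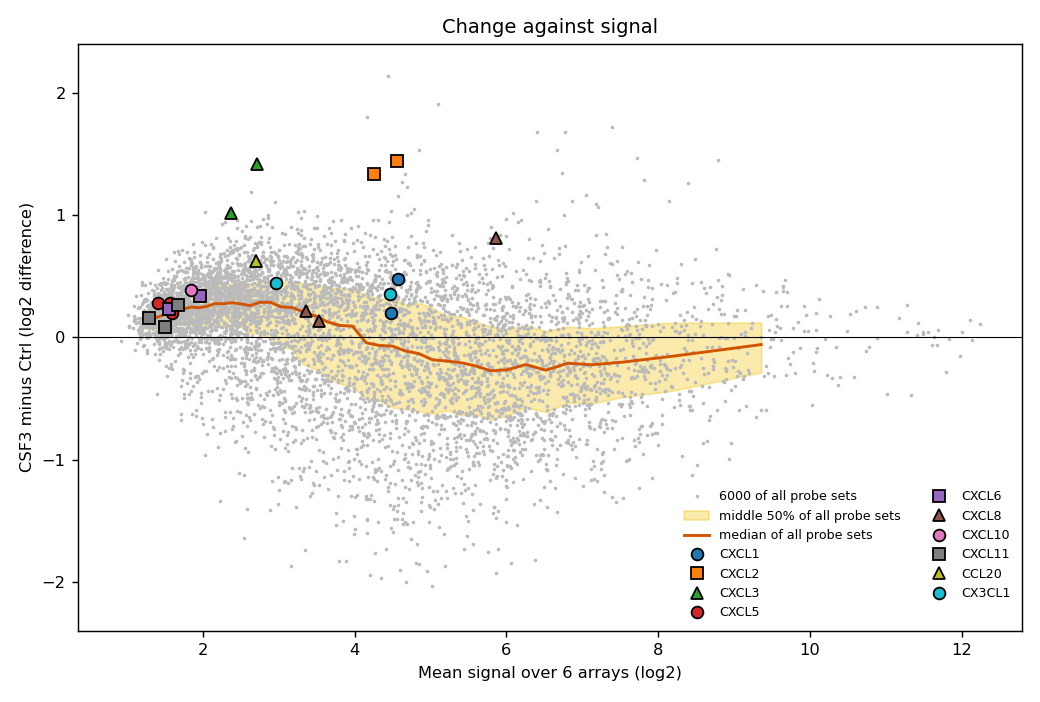
Difference between CSF3 and Ctrl arrays (log2) against the mean signal over the 6 arrays (log2) for a random draw of probe sets (grey) and for the 21 chemokine probe sets (coloured). The orange line is the running median of all probe sets and the band holds their middle 50%. CXCL2, CXCL3 and the brightest probe set of CXCL8 lie well above the band, while CXCL5, CXCL6 and CXCL11 lie in or near it. The second CXCL1 probe set, the dimmer one of CX3CL1 and the dimmer ones of CXCL8 also lie within it.

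CXCL2, which attracts neutrophils through CXCR2, had log2 signals of 5.13, 5.42 and 5.31 on CSF3 arrays, against 3.78, 3.85 and 3.90 on Ctrl arrays. The groups are more than 1 log2 unit apart and no array comes near the other group. The rise was 1.44 ± 0.08 (SE), or 2.72-fold if the deposited scale is log2 (limma adjusted p = 1.57e-05), the 48th largest rise of all 44988 probe sets. The second probe set gave 4.75, 5.02 and 4.999 on CSF3 arrays, against 3.51, 3.58 and 3.68 on Ctrl arrays, a rise of 1.33 ± 0.09 (limma adjusted p = 2.49e-05). Both probe sets thus give the same size within their errors, and under every setting tried the rise lay between 1.28 and 1.57.

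CXCL3, a close relative of CXCL2 with the same receptor, read 3.81, 3.14 and 3.32 on CSF3 arrays and 2.03, 2.10 and 1.90 on Ctrl arrays. All CSF3 arrays are higher, and they scatter more (SD 0.35) than the Ctrl arrays (SD 0.10). The rise was 1.42 ± 0.16 (limma adjusted p = 0.000224). The dimmer probe set read 3.23, 2.96 and 2.46 on CSF3 arrays, against 1.76, 1.88 and 1.95 on Ctrl arrays, a rise of 1.02 ± 0.18 (limma adjusted p = 0.00172). On the brighter probe set the rise was 1.26 after quantile normalization and 1.20 after cyclic loess, and it passed under both.

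CXCL1, their close relative, moved less. It read 4.83, 4.88 and 4.74 on CSF3 arrays, against 4.25, 4.45 and 4.32 on Ctrl arrays, without overlap. The rise was 0.48 ± 0.07, or 1.39-fold (limma adjusted p = 0.00104). Its second probe set read 4.48, 4.65 and 4.61 on CSF3 arrays and 4.38, 4.30 and 4.47 on Ctrl arrays, groups that nearly touch. That rise of 0.20 ± 0.07 only just passed (limma adjusted p = 0.0452) and was lost without CSF3 replicate 2, CSF3 replicate 3, Ctrl replicate 1 or Ctrl replicate 2 (0.16 to 0.20, limma adjusted p = 0.0990 to 0.151). Quantile normalization gave 0.63 and 0.35 for its probe sets.

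CXCL8, or interleukin 8, the best known neutrophil attractant, read 6.34, 6.21 and 6.26 on CSF3 arrays and 5.47, 5.43 and 5.48 on Ctrl arrays on its brightest probe set. Arrays of a group lie close together and the groups are far apart. The rise was 0.81 ± 0.06, or 1.75-fold (limma adjusted p = 3.54e-05), and 1.06 and 1.04 after quantile normalization and cyclic loess. The other probe sets of CXCL8 did not show it. One read 3.44, 3.82 and 3.55 on CSF3 arrays and 3.63, 3.36 and 3.42 on Ctrl arrays, a difference of 0.13 with a 95% interval from -0.13 to 0.40. The other read 3.58, 3.21 and 3.64 on CSF3 arrays and 3.36, 3.19 and 3.22 on Ctrl arrays, a difference of 0.22 with an interval from -0.06 to 0.50. The groups overlap on both probe sets, neither was called (limma adjusted p = 0.317 and 0.135), and both intervals end below the rise of the brightest one, so the rise of CXCL8 rests on 1 of 3 probe sets. The name of that probe set ends in _s_at, a class that can hybridise with more than 1 transcript. With the probe sets of that class and of the similar _x_at class left out, no probe set of CXCL8, CXCL1 or CXCL11 was called. By the mean of its 3 probe sets CXCL8 rose by 0.39 ± 0.05 (limma adjusted p = 0.000490). The second of the dimmer probe sets passed when CSF3 replicate 2 was left out (0.35, limma adjusted p = 0.00694).

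CXCL5 and CXCL6, neutrophil attractants of the same cluster, were dim in both groups. CXCL6 read 2.14, 2.23 and 2.03 on CSF3 arrays and 1.77, 1.84 and 1.78 on Ctrl arrays on its brightest probe set, a difference of 0.34 ± 0.07 (limma adjusted p = 0.00414). CXCL5 read 1.57, 1.80 and 1.73 on CSF3 arrays and 1.45, 1.57 and 1.47 on Ctrl arrays, groups that meet at their edges, with a difference of 0.20 ± 0.08 (limma adjusted p = 0.0477). Without CSF3 replicate 2 the CXCL5 difference was 0.15 (limma adjusted p = 0.122), and leaving out any other array but CSF3 replicate 1 also ended this call, with limma adjusted p-values from 0.0581 to 0.140. The other probe sets gave 0.28 and 0.29 for CXCL5 and 0.23 for CXCL6, against a median of 0.22 over all probe sets of their bin. The 0.23 of CXCL6 was lost without any 1 of the 3 Ctrl arrays (limma adjusted p = 0.0508 to 0.0720). After quantile normalization none of these 5 probe sets passed, with differences from 0.012 to 0.12, and after cyclic loess they ranged from -0.0061 to 0.12.

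CXCL10 and CXCL11, the interferon-linked ligands of CXCR3, were as dim. CXCL10 read 2.07, 2.10 and 1.94 on CSF3 arrays, against 1.54, 1.74 and 1.67 on Ctrl arrays, a difference of 0.39 ± 0.08 without overlap (limma adjusted p = 0.00320). CXCL11 read 1.73, 1.99 and 1.70 on CSF3 arrays and 1.68, 1.53 and 1.43 on Ctrl arrays on its brightest probe set, where the groups nearly touch, with a difference of 0.26 ± 0.10 (limma adjusted p = 0.0495). Its other probe sets overlapped and gave 0.09 and 0.16 (limma adjusted p = 0.353 and 0.163), the second of which passed without CSF3 replicate 3 (0.25, limma adjusted p = 0.0164). The CXCL11 call was lost without CSF3 replicate 1, CSF3 replicate 2, Ctrl replicate 2 or Ctrl replicate 3, with differences from 0.17 to 0.30 (limma adjusted p = 0.0540 to 0.159). It was also lost with array medians subtracted (limma adjusted p = 0.0534), with array weights (limma adjusted p = 0.0531) and with the _x_at and _s_at probe sets left out, while the mean of the 3 probe sets was 0.17 ± 0.05 (limma adjusted p = 0.0160). Quantile normalization took CXCL10 to 0.17 (limma adjusted p = 0.0990) and the probe sets of CXCL11 to between -0.09 and 0.06, none of them called.

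CCL20, the ligand of CCR6, has 1 probe set, which read 3.18, 2.59 and 3.27 on CSF3 arrays and 2.29, 2.57 and 2.29 on Ctrl arrays. CSF3 replicate 2 lies just above Ctrl replicate 2, while the other CSF3 arrays are clearly higher. The difference of 0.63 ± 0.18 passed the test (limma adjusted p = 0.0154). It was lost without CSF3 replicate 1, Ctrl replicate 1 or Ctrl replicate 3 (0.55, 0.58 and 0.58, limma adjusted p = 0.0530, 0.0535 and 0.0525) after quantile normalization (0.45, limma adjusted p = 0.0856) and after cyclic loess (0.41, limma adjusted p = 0.0911).

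CX3CL1 read 4.60, 4.72 and 4.60 on CSF3 arrays, against 4.16, 4.36 and 4.33 on Ctrl arrays, a rise of 0.36 ± 0.08 (limma adjusted p = 0.00439). Its dimmer probe set read 3.15, 3.19 and 3.21 on CSF3 arrays and 2.70, 2.63 and 2.88 on Ctrl arrays, a rise of 0.45 ± 0.08 (limma adjusted p = 0.00163). The groups do not overlap on either probe set, and both rises also passed after quantile normalization (0.50 and 0.29) and cyclic loess (0.42 and 0.24). With either scaling the genes that rose were CXCL1, CXCL2, CXCL3, CXCL8 and CX3CL1, on 9 probe sets, and 0 fell. Of all probe sets 28.5% rose and 24.8% fell after quantile normalization, and 26% rose and 27.1% fell after cyclic loess. Of all genes, by the brightest probe set, 38.6% rose and 19% fell after quantile normalization, and 35.8% rose and 20.5% fell after cyclic loess.

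**Figure D4:**
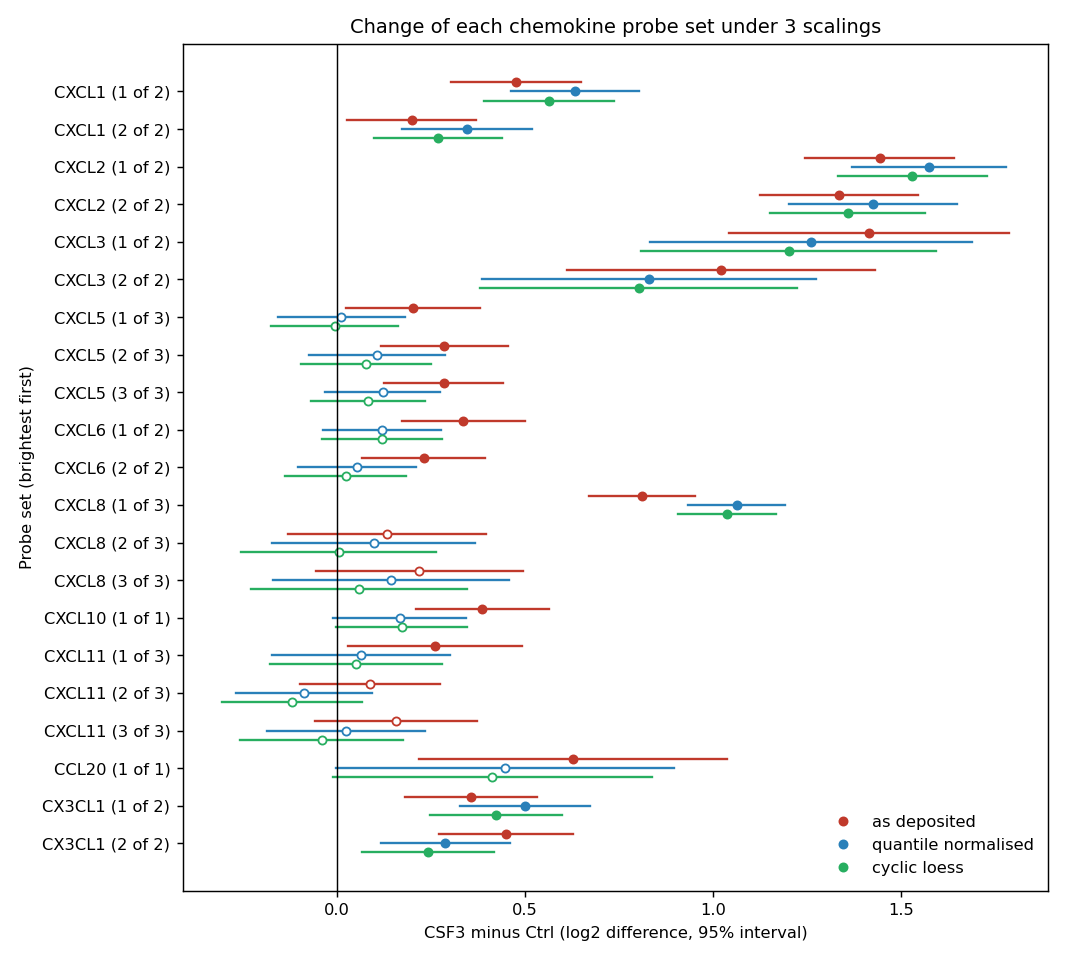
Difference between CSF3 and Ctrl arrays with its 95% interval (log2) for each of the 21 chemokine probe sets, as deposited (red), after quantile normalization (blue) and after cyclic loess (green). Filled points passed the test and open points did not; CXCL2 and CXCL3 lie furthest from 0, while CXCL5, CXCL6, CXCL10, CXCL11 and CCL20 are open under both scalings.

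Genes around the chemokines were read from their brightest probe sets, against 44.1% higher and 26.5% lower among all genes. For the counts after quantile normalization in these lists, the shares of all genes were 38.6% higher and 19% lower. Of 30 other chemokine ligands measured, 22 rose and 1 fell, with a median of 0.34 against 0.16 over all genes. Those with the smallest p were CCL27, a skin T cell attractant (0.51 ± 0.06), CCL22, which attracts cells with CCR4 (0.52 ± 0.07), and CCL25, a ligand of CCR9 (0.48 ± 0.07). After quantile normalization 9 of the 30 rose and 0 fell, a lower share of rises than the 38.6% of all genes. Within the cluster on chromosome 4, PF4V1, PF4 and PPBP, platelet chemokine genes, differed by 0.39, 0.43 and 0.28, of which only PF4V1 passed after quantile normalization (0.55).

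Of 21 chemokine receptor genes, 15 rose and 1 fell, or 12 and 1 after quantile normalization. Their median difference was 0.45, as large as the 0.43 of the 10 chemokine genes on their brightest probe sets. After quantile normalization these medians were 0.27 and 0.47. CXCR3, the receptor of CXCL10 and CXCL11, read 4.99, 5.01 and 4.86 on CSF3 arrays and 4.23, 4.28 and 4.29 on Ctrl arrays, a rise of 0.69 ± 0.06 (limma adjusted p = 9.70e-05). ACKR1, a scavenging receptor that binds many chemokines, rose by 0.66 ± 0.06, and CCRL2, an atypical receptor of this family, fell by 0.83 ± 0.08. The neutrophil receptors CXCR1 and CXCR2 differed by 0.22 ± 0.11 and 0.11 ± 0.10 and were not called on their brightest probe sets (limma adjusted p = 0.114 and 0.334), while 1 of 2 and 2 of 3 of their probe sets passed. CXCR1 also passed without CSF3 replicate 1 (0.33, limma adjusted p = 0.0143). CCR6 and CX3CR1, the receptors of CCL20 and CX3CL1, differed by 0.33 ± 0.11 and 0.34 ± 0.10 (limma adjusted p = 0.0315 and 0.0228). Both calls were lost after quantile normalization, that of CCR6 also without CSF3 replicate 1 or 2 or Ctrl replicate 2 or 3 (limma adjusted p = 0.0788 to 0.105), and that of CX3CR1 also without Ctrl replicate 1 or 2 (limma adjusted p = 0.0808 and 0.0572); without CSF3 replicate 1 the CX3CR1 difference was 0.22.

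Of 21 transcription factors and inhibitors known at chemokine promoters, 13 rose and 3 fell. NFKBIA, the NF-κB inhibitor that NF-κB itself induces, read 9.05, 9.16 and 9.13 on CSF3 arrays and 7.12, 7.14 and 7.12 on Ctrl arrays, a rise of 1.99 ± 0.06. The AP-1 partners FOS and ATF3 rose by 1.46 ± 0.06 and 1.28 ± 0.06. RELA, the p65 subunit, differed by 0.04 ± 0.05 (limma adjusted p = 0.530), and its probe sets ranged from -0.82 to 0.04. After quantile normalization 15 of these genes rose and 0 fell, RELA among them (0.26, limma adjusted p = 0.00502). By the mean of its probe sets RELA fell, so its direction depends on the choice.

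Chemokine messages are known to be short-lived, and 4 of 12 genes of their turnover rose and 4 fell. ZC3H12A, the RNase Regnase-1, rose by 0.99 ± 0.06 and ZFP36, or tristetraprolin, which binds AU-rich elements, by 0.64 ± 0.05. CNOT1, the scaffold of the deadenylase complex, fell by 0.75 ± 0.06. After quantile normalization 6 of the 12 rose and 3 fell.

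Of 13 genes whose proteins cut or hold chemokines, 6 rose and 6 fell. ADAM10 and ADAM17, the sheddases of CX3CL1, fell: ADAM10 read 4.59, 4.20 and 4.36 on CSF3 arrays, against 5.54, 5.54 and 5.68 on Ctrl arrays (-1.20 ± 0.10), and ADAM17 6.48, 6.57 and 6.47 on CSF3 arrays, against 7.13, 7.07 and 7.19 on Ctrl arrays (-0.62 ± 0.06). All 4 probe sets of ADAM10 and 3 of 4 of ADAM17 fell. The collagenase gene MMP1 fell by 1.84 ± 0.06, the heparan sulfate proteoglycan gene SDC1 by 1.00 ± 0.06 and the cathepsin gene CTSL by 0.91 ± 0.06. These falls also passed after quantile normalization.

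Of 23 genes of inducing cytokines and their receptors, 12 rose and 5 fell, or 7 and 3 after quantile normalization. CSF3 itself read 5.97, 5.91 and 5.99 on CSF3 arrays and 5.13, 4.85 and 4.52 on Ctrl arrays, a rise of 1.12 ± 0.14 (limma adjusted p = 0.000340). IL6 rose by 0.68 ± 0.07 and TRAF6, an adaptor between interleukin 1 receptors and NF-κB, by 0.53 ± 0.08.

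**Figure D5:**
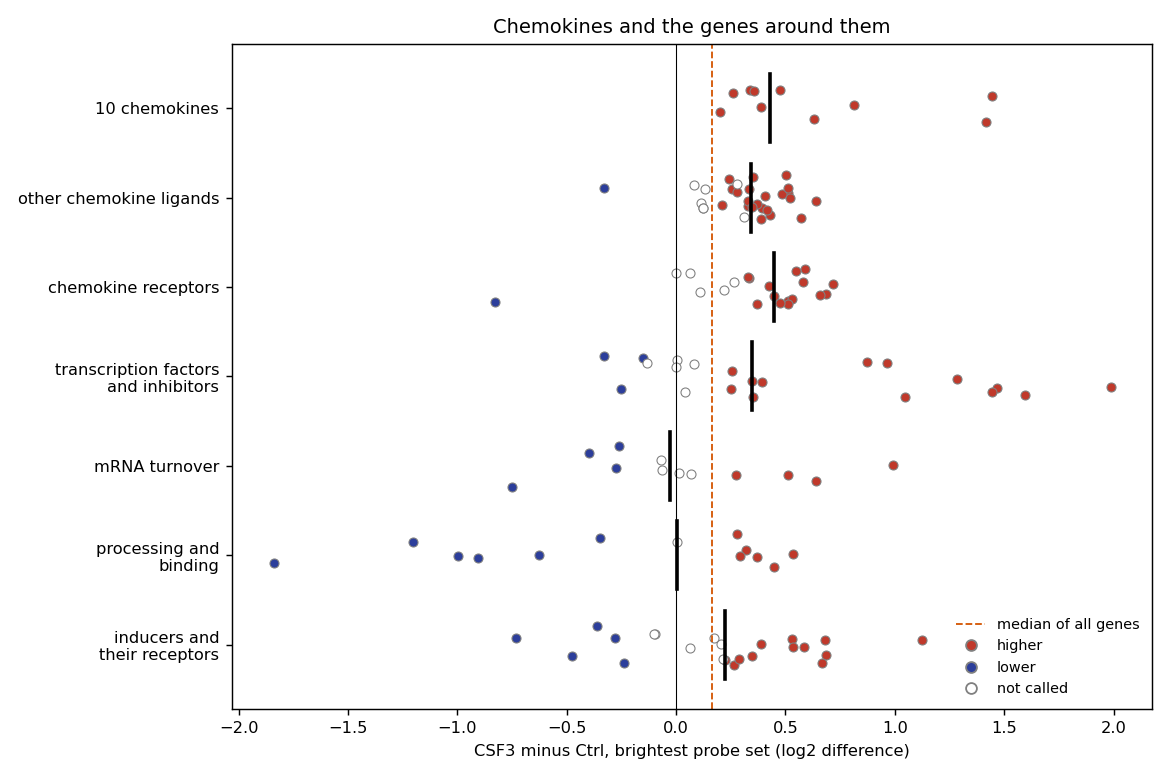
Difference between CSF3 and Ctrl arrays (log2, brightest probe set of each gene) for the 10 chemokine genes and 6 lists of genes around them. Each point is 1 gene, red where higher, blue where lower and white where it did not pass the test; black bars are list medians and the dashed line is the median of all genes at 0.16.

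Epithelial markers, for the labelled carcinoma line itself, and markers of other cells that make or follow chemokines were read from their brightest probe sets. Among all genes 44.1% rose and 26.5% fell, or 38.6% and 19% after quantile normalization. Of 10 epithelial markers 5 rose and 2 fell, with a summed linear signal of 369 to 372 on CSF3 arrays and 352 to 357 on Ctrl arrays. Among those that rose, KRT19 and CDX2, with 1 probe set each, differed by 0.47 and 0.34. CLDN4 rose on 2 of its 3 probe sets, which ranged from 0.14 to 0.65. The members that fell were KRT8 and EPCAM. The keratin gene KRT8 read 5.06, 4.89 and 5.22 on CSF3 arrays and 6.42, 6.33 and 6.37 on Ctrl arrays (-1.32 ± 0.09, limma adjusted p = 2.56e-05), and all 8 of its probe sets fell. The epithelial adhesion gene EPCAM read 3.41, 3.28 and 3.21 on CSF3 arrays and 3.60, 3.68 and 3.60 on Ctrl arrays (-0.33 ± 0.07, limma adjusted p = 0.00498), and all 3 of its probe sets fell. KRT18, the partner of KRT8, read 7.41 to 7.52 on CSF3 arrays and 7.25 to 7.27 on Ctrl arrays, and the cadherin gene CDH1 was dim, at 2.21 to 2.28 on CSF3 arrays and 2.15 to 2.30 on Ctrl arrays. Of 10 neutrophil markers 5 rose and 0 fell (summed signal 86.1 to 94.7 on CSF3 arrays and 66.2 to 69.7 on Ctrl arrays). Of 9 other leukocyte markers 6 rose and 1, CD68, fell (-0.29). Their summed signal was 965 to 1000.1 on CSF3 arrays and 1147 to 1203 on Ctrl arrays, a linear sum in which bright genes weigh most. The common leukocyte gene PTPRC read 1.45 to 1.83 on CSF3 arrays and 1.35 to 1.47 on Ctrl arrays. Of 9 fibroblast markers 6 rose and 0 fell (63.5 to 66.4 and 47.2 to 47.9). The neutrophil and fibroblast lists were dim. Their median log2 signals were 2.45 to 2.55 and 2.50 to 2.73 on CSF3 arrays. On Ctrl arrays they were 2.22 to 2.35 and 2.05 to 2.06. The dimmest bin of all probe sets ends at 2.32, and 46.4% of that bin and 50% of bin 2 rose. After quantile normalization 4 epithelial markers rose and 3 fell, and 2 neutrophil markers rose and 0 fell. Of the other leukocyte markers 3 then rose and 1 fell, and of the fibroblast markers 4 rose and 0 fell. The part of these markers in the chemokine signals was not tested.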

How the data were processed

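Total RNA of 6 HCT116 samples was labelled with biotin and read on Affymetrix arrays, per the labels. The authors deposited 1 value per probe set and array, taken here as log2 signals since they run from 0.81 to 12.7; the base, the background correction and the normalization are unknown here (not given in the sources used here), and a fold assumes log2. Of 49395 probe sets, 44988 have 1 gene in the platform annotation, 1832 several, 2473 none and 102 are controls. CSF3 minus Ctrl was fitted per probe set over all 44988 by limma 3.58.1 (lmFit, eBayes; R 4.3.3), with Benjamini-Hochberg adjustment and a threshold of 0.05, because every probe set of the members was wanted. The brightest probe set by mean signal stands for a gene in the lists.

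Values are the 6 arrays, and changes are log2 differences ± SE. No depth applies to arrays, and their number limits the precision. Named were all 10 members, the 3 genes of each context list with the smallest p, the members' receptors, ADAM10, ADAM17, NFKBIA, RELA and CSF3; PF4V1, PF4 and PPBP, by their place in the cluster, and the single markers were named after their values were seen. Members and lists were chosen with earlier results of these data known. On simulated data of the 44988 probe sets for CSF3 against Ctrl, the fit recovered 0%, 34%, 78% and 98% of 50 probe sets each changed by 0.25, 0.5, 1 and 2. All other simulated probe sets were left unchanged. In the real data 36.7% rose and 28.8% fell, so the adjustment was less strict there and smaller differences passed. The simulated recovery thus does not hold for the fit used above. Alternatives were quantile normalization, array medians, cyclic loess, a filter on dim probe sets, other units, moderation, array weights, the replicate block, a minimum change and leaving out each array. Promoters are RefSeq windows of GRCh38.p14, aligned with Biopython 1.88.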

Additional observations from a re-analysis of the deposited data

Results flagged for a closer look

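A probe set that the annotation gives to both CXCL1 and CXCL2 stands outside the comparisons above, which use probe sets of 1 gene. It read 4.03, 4.19 and 4.14 on CSF3 arrays, against 3.88, 3.99 and 3.89 on Ctrl arrays. The difference of 0.195 ± 0.067 (SE) passed in a limma fit over 49293 probe sets (adjusted p = 0.0346), and all CSF3 arrays lie above all Ctrl arrays.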

How the results depend on the processing

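As deposited 17 of 21 chemokine probe sets and 10 of 10 genes on their brightest probe set rose, and 0 fell under every setting run. Of all probe sets 36.7% rose, and of all genes 44.1%. Quantile normalization and cyclic loess each left 9 probe sets and 5 genes. Of all probe sets 28.5% and 26% then rose, and of all genes 38.6% and 35.8%. For the settings that follow, the shares of all probe sets and genes were not counted. Their counts therefore do not show whether the chemokines kept their calls more often than other genes. Leaving out the dimmest 30% left 9 probe sets and 6 genes, of 11 and 6 tested. Requiring a change of at least 1 left 4 and 2, CXCL2 and CXCL3. Leaving out probe sets ending in _x_at or _s_at, an alternative chosen after seeing the data, left 10 and 6, of 15 and 10 tested. Subtracting array medians left 16 and 9, without CXCL11, and array weights 15 and 9, without CXCL11 and the second CXCL1 probe set. Leaving out single arrays gave 13 to 16 probe sets and 7 to 9 genes. The sign turned for CXCL5 with cyclic loess (-0.0061), for one CXCL11 probe set with cyclic loess (-0.040), for another with quantile normalization (-0.087) and cyclic loess (-0.12), for CXCR2 with each (-0.11) and for RELA by the mean of its probe sets (-0.44). The cause was not tested. With the replicate block 16 probe sets and 10 genes rose, and the second CXCL1 probe set lost its call (limma adjusted p = 0.0644). The labels do not say whether equal numbers pair the arrays. Same-numbered arrays deviated together only weakly, with r of 0.026, 0.015 and 0.026, though each CSF3 array correlated best with its own number. The fit without the block was kept as the main one. The number of arrays, 3 a group, and the dim signals of CXCL5, CXCL6, CXCL10 and CXCL11 limit what can be said of small differences.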

Other observations

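A probe set annotated to both CXCL5 and GLYR1 went the other way from the CXCL5 probe sets. It read 5.77, 5.46 and 5.49 on CSF3 arrays, against 5.96, 6.12 and 5.95 on Ctrl arrays, a difference of -0.44 ± 0.10 (limma adjusted p = 0.00542 over 49293 probe sets). The probe sets of CXCL5 alone were far dimmer, with group means of 1.27 to 1.71. How much of the shared signal comes from CXCL5 was not tested, so it is no reading of CXCL5 by itself. CXCL16, a membrane-anchored chemokine like CX3CL1, was the 1 other ligand that fell: it read 6.24, 6.37 and 6.22 on CSF3 arrays and 6.63, 6.64 and 6.55 on Ctrl arrays, a difference of -0.33 ± 0.07 (limma adjusted p = 0.00362) that was -0.07 and not called after quantile normalization. It was chosen after its values were seen.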
